A study of Mus musculus with 2 samples.

Results

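Molecular chaperones of the cytosol and of mitochondria were followed in the dorsal striatum of mice with long access to self-administered intravenous cocaine. The set held 83 genes of 32531 in the deposited counts, chosen by symbol: the HSP70, HSP110 and HSP90 genes, the J proteins of classes A, B and C, the small heat shock proteins, the CCT chaperonin, prefoldin, the HSP60 and HSP10 pair of mitochondria, and the BAG factors. The endoplasmic reticulum (ER) genes Hspa5, Dnajb9, Dnajb11, Dnajc3 and Dnajc10 were left out by the same rule. At least 50 counts over both libraries were found for 70 of the 83, which are called measured below, and 13 fell under that limit.

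There was 1 library from the escalating group and 1 from the nonescalating group, named for whether cocaine intake went up over the study. All mice were of the transgenic line Drd1-TRAP CP73, in which a bacterial artificial chromosome with Drd1 sequences drives an EGFP-tagged ribosomal protein L10a, on an FVB/N-Swiss Webster background crossed to C57BL/6. Both libraries were the input, that is, RNA of the whole dissected tissue before ribosomes are pulled down, so they hold every cell type of the dissection and not only the cells with Drd1. The number of animals per library, their age and sex were not given in the sources used here, and mice without cocaine were not analysed here.

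Chaperones bind proteins that are unfolded and help them reach or regain their shape. HSP70 holds short stretches of a client in a cycle of ATP binding and release; a J protein brings the client and starts hydrolysis, and a nucleotide exchange factor such as a BAG or HSP110 protein resets the cycle. HSP90 acts later, on kinases and steroid receptors, while prefoldin hands new actin and tubulin chains to the CCT ring. Part of the family is made at all times and part is switched on by heat shock factor HSF1 under stress, and neurons rely on J proteins at the synapse for vesicle release and recycling.

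Reads that fell in genes numbered 9548358 in the escalating library and 9376097 in the nonescalating library. Counts were scaled with TMM factors, and CPM below are counts per 1000000 reads of the scaled library. Ratios are the escalating library over the nonescalating library, each with an exact 95% counting interval. With 1 library per group there is no replicate check and no test: the interval covers counting error only, and a ratio sets library against library rather than condition against condition. Calls of higher or lower needed a ratio of 1.5-fold or more, taken with a pseudocount of 0.5, and an interval that left out 1. All 15 microglia markers were called lower, at a summed 38.7 CPM in the escalating library and 1783 CPM in the nonescalating library, and Trem2 had no read in the escalating library. All 11 measured astrocyte markers were lower too (2201 CPM and 15324 CPM summed), as were 8 of 11 oligodendrocyte markers (1546 CPM and 4048 CPM) and 10 of 12 endothelial markers (93.4 CPM and 176 CPM). Of 12 projection neuron markers 1 was higher and 1 lower, with sums of 7560 CPM and 6761 CPM. In tissue RNA, fewer cells of a type and less RNA per cell cannot be told apart.

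Of the 70 measured chaperone genes, 12 were called higher and 5 lower in the escalating library. That is 17.1% higher and 7.14% lower, against 9.33% higher and 17.1% lower among all 12213 measured genes. The ratio lay above 1 for 50 of the 70 and below 1 for 20, with a median log2 ratio of 0.17, against 0.02 for all measured genes. Most differences were small: 45 members lay within 1.3-fold of an equal level, and Bag2 alone passed 2-fold with an interval that excluded 1. Summed over all 83 genes, chaperone reads made up 6639 CPM in the escalating library and 5960 CPM in the nonescalating library, a ratio of 1.11 (1.10 to 1.13). With counts scaled to total assigned reads, which put the median log2 ratio of all genes at 0.38 instead of 0.02, 28 members were higher and 0 lower (40.0% and 0%), beside 31.5% and 9.41% of all genes, and the members' median was 0.53. All 12 higher members were still called higher there, and none of the 5 lower members was still called.

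The general HSP90 and HSP70 genes led the family in level, and their ratios lay close to 1 with TMM scaling. Hsp90ab1, the constitutive cytosolic HSP90, had 1245 CPM in the escalating library and 1058 CPM in the nonescalating library, a ratio of 1.18 (1.15 to 1.21). Hsp90aa1, its stress-responsive partner, had 422 CPM and 425 CPM, a ratio of 0.992 (0.949 to 1.04). Hspa8, the constitutive HSC70 that also strips clathrin from vesicles, had 762 CPM and 706 CPM, a ratio of 1.08 (1.04 to 1.11). None of these reached 1.5-fold, although counting error alone did not span an equal level for Hsp90ab1 or Hspa8. With total-read scaling Hsp90ab1 was called higher at 1.51, while Hspa8 and Hsp90aa1 had 1.38 and 1.27 and were not called. Per kb of exon, the levels in the escalating library were 415 CPM per kb for Hsp90ab1, 177 for Hspa8, 107 for Hsp90aa1 and 60.5 for Hsph1. The nonescalating library had the same order, at 353, 164, 108 and 50.8 CPM per kb. With the median length of protein-coding transcripts in place of all exons, Hsp90ab1 and Hspa8 stayed at the top in both libraries, while Hsph1 and Hsp90aa1 both stood at 138 CPM per kb in the escalating library, so their order rests on the length used. The 5 genes with the most reads held 46.9% of member reads in the escalating library and 46.5% in the nonescalating library.

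**Figure D1:**
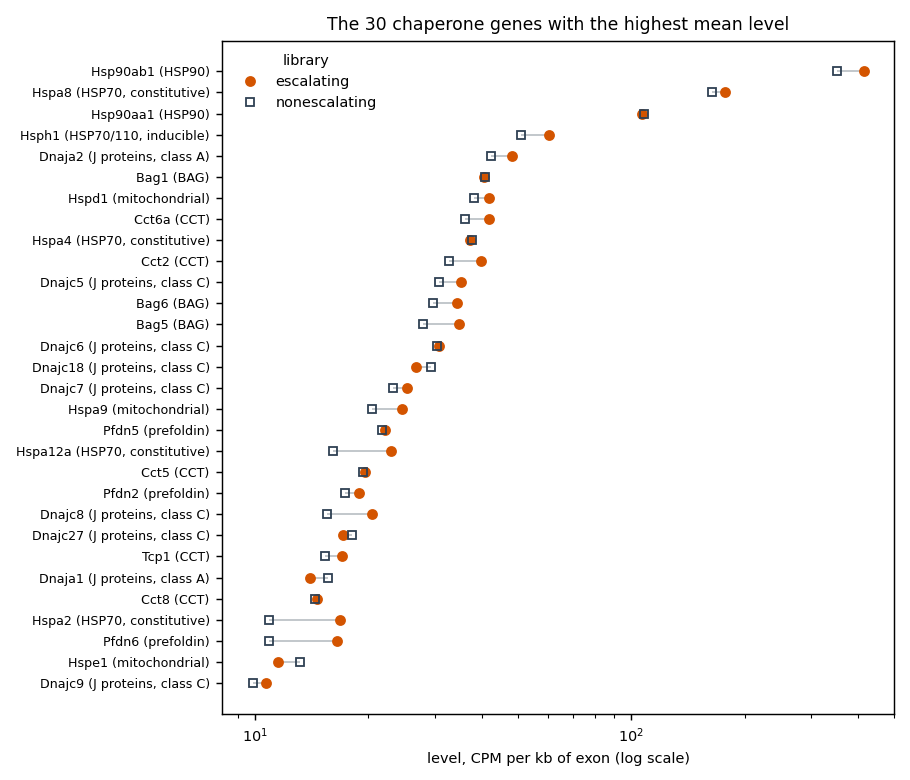
Levels of the 30 chaperone genes with the highest mean level, in CPM per kb of exon on a log axis, with role groups in brackets; filled circles are the escalating library and open squares the nonescalating library (1 library each, no error bars). Hsp90ab1 stands at 415 and 353 CPM per kb and Hspa8 at 177 and 164, above all other members in both libraries.

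The stress-inducible HSP70 genes were near the limit of detection. Hspa1a, the HSP70 gene that heat shock induces from a low base, had 17 reads in the escalating library and 9 in the nonescalating library, a ratio of 1.44 (0.609 to 3.68). Hspa1b, its near-identical neighbour, had 1 and 0 reads. Finding 0 reads in the nonescalating library allows for as many as 3, or 0.363 CPM. At this depth a difference in either gene was not detectable, and both are uncertain because reads that align equally well to both copies are left out of the counts. Hspb1, the inducible small heat shock protein HSP27, had 12 and 13 reads. The HSP110 gene Hsph1, an exchange factor for HSP70 that is induced by stress and also abundant at rest in brain, had 439.8 CPM and 369 CPM, a ratio of 1.19 (1.14 to 1.25), or 1.53 and called higher with total-read scaling. Hspa1l, an HSP70 gene next to this pair, had 77 and 49 reads and a ratio of 1.20 (0.829 to 1.76).

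Heat shock factor binds repeats of GAA in alternating orientation, and these letters were searched in RefSeq promoter windows (build GRCm38.p6) of 250 bases before to 50 after each start, on both strands. Windows were matched for 67 of the 83 genes. A longer element, GAANNTTC followed after any 2 bases by a further GAA, was present in the windows of 4 of these 67 genes (5.97%), against 0.662% of 27025 genes with a window. The shorter element GAANNTTC, which reads the same on both strands and lies inside every longer match, was present in 15 (22.4%), against 9.04%. Stretches before the start are shown for the mitochondrial pair, for 2 J proteins and for the inducible HSP70 pair, to let the letters be read beside the values, with the element in capitals. Hspe1 and Hspd1, which encode HSP10 and HSP60, share a stretch between their starts, and its letters are given on the Hspe1 strand (chr1:55088034-55088101, plus strand); 2 longer elements overlap in it.
Hspe1: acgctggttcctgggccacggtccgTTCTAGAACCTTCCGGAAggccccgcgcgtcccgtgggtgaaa
Dnajb6, a class B J protein that keeps aggregation-prone proteins apart, held the longer element (chr5:29735827-29735889, plus strand).
Dnajb6: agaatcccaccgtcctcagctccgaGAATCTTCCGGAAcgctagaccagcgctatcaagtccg
Dnaja4, a class A J protein called higher below, held the shorter element at 2 places (chr9:54699444-54699539, plus strand).
Dnaja4: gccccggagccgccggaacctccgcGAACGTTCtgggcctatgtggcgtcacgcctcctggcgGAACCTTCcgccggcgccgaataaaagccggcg
Hspa1a held the shorter element (chr17:34972228-34972285, minus strand), and the Hspa1b stretch has the same letters; over the whole windows these 2 genes differ at 4 of 300 bases.
Hspa1a: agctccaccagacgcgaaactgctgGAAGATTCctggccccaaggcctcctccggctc
A match is a description of letters and not a binding site. Of the 4 members with the longer element, Dnajb6, Hspd1, Hspe1 and Hsph1, none was called, and their log2 ratios ran from -0.20 to 0.25. Hspd1 and Hspe1 count as 2 genes here although they share 1 stretch. Of the 57 measured genes of the whole series with the longer element, 6 were higher and 9 lower. Among 11 measured members with the shorter element 1 was higher and 1 lower (median 0.05), and among the 45 measured members whose windows lacked it 10 were higher and 3 lower (median 0.16). Over all measured genes with a window, 63 were higher and 105 lower of 619 with the shorter element (median 0.07), and 724 higher and 1394 lower of 8324 without it (median 0.02).

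Among the other HSP70 relatives, Hspa14 and Hspa2 were called higher and Hspa13 and Hspa12b lower. Hspa14, an HSP70 found with ribosomes, had 20.1 CPM in the escalating library and 13.1 CPM in the nonescalating library, a ratio of 1.54 (1.21 to 1.95); it shares 321 exon bases on its own strand with the gene model Gm45902. Hspa2, best known from male germ cells, had 44.4 CPM and 28.8 CPM, a ratio of 1.54 (1.32 to 1.81). Both lie near the lower edge of a call. Hspa13, an HSP70 of microsomes, had 19.3 CPM and 36.6 CPM, a ratio of 0.527 (0.440 to 0.631). Hspa12b, known from endothelial cells, had 5.82 CPM and 9.55 CPM, a ratio of 0.610 (0.431 to 0.860); 10 of 12 endothelial markers were lower in the same library, and their part in its value was not tested. Hspa12a, a relative of Hspa12b that is abundant in brain, had 211 CPM and 148 CPM, a ratio of 1.43 (1.33 to 1.53), which misses the call by fold. The exchange factors Hspa4 and Hspa4l had ratios of 0.990 (0.929 to 1.05) and 1.13 (1.04 to 1.24).

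J proteins made up 39 of the 83 genes, of which 34 were measured, 8 were higher and 2 lower, counting those of mitochondria. These calls are 23.5% and 5.88% of the measured J protein genes, beside 9.33% and 17.1% of all measured genes. In class A, whose members carry a zinc-binding domain, Dnaja4 had 356 and 141 reads, or 32.9 CPM in the escalating library and 17.0 CPM in the nonescalating library, a ratio of 1.93 (1.58 to 2.36). It has been linked to sterol synthesis, and it shares 1581 exon bases with Wdr61 on the opposite strand, whose own ratio was 1.17 (0.911 to 1.5). Whether the counting used strand is not given in the sources used here, so reads of such pairs may not be told apart. Reads that overlapped several genes were left out of the counts. Dnaja2 and Dnaja1, the main cytosolic partners of Hspa8, had ratios of 1.14 (1.05 to 1.23) and 0.900 (0.830 to 0.976).

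In class B, Dnajb1 and Dnajb4 were higher and Dnajb12 lower. Dnajb1, the HSP40 that works with HSP70 and HSP110 to take protein aggregates apart, had 26.3 CPM in the escalating library and 15.7 CPM in the nonescalating library, a ratio of 1.68 (1.36 to 2.08). Dnajb4, its close relative, had 87.9 CPM and 55.2 CPM, a ratio of 1.59 (1.42 to 1.78). Dnajb5, the third gene of this subgroup, had 51.8 CPM and 41.8 CPM, a ratio of 1.24 (1.08 to 1.42). All 3 lay above an equal level, with Dnajb5 short of the fold. Dnajb12, anchored in the ER membrane, had 11.0 CPM and 16.6 CPM, a ratio of 0.664 (0.515 to 0.855). Dnajb6 had a ratio of 1.16 and Dnajb2, a neuronal J protein that feeds clients to the proteasome, 0.919 (0.760 to 1.11). Dnajb3, Dnajb7, Dnajb8 and Dnajb13, which are known from testis, had 0 to 7 reads.

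The synaptic J proteins of class C were abundant and close to equal. Dnajc5, the cysteine string protein that keeps SNARE proteins of synaptic vesicles folded, had 245 CPM in the escalating library and 214 CPM in the nonescalating library, a ratio of 1.14 (1.08 to 1.21). Dnajc6, the neuronal auxilin that recruits Hspa8 to clathrin coats, had 183 CPM and 180.2 CPM, a ratio of 1.01 (0.948 to 1.09). Dnajc13, a J protein of endosomes, had 1.02 (0.929 to 1.13). Of the 19 measured class C genes not placed in the mitochondrial group, 3 were higher and 1 lower (15.8% and 5.26%, beside 9.33% and 17.1% of all genes). Their median log2 ratio of 0.03 was near that of all genes. The higher genes had few reads: Dnajc17, a splicing-linked protein, had 120 and 56 (1.64, 1.18 to 2.29), and Dnajc24, needed for diphthamide synthesis, had 82 and 38 (1.65, 1.11 to 2.49). Dnajc4 had 72 and 35 (1.57, 1.04 to 2.43). Dnajc17 shares 108 exon bases with Zfyve19 on the opposite strand, which had a ratio of 1.45 (1.09 to 1.94), and Dnajc24 shares 84 with Dcdc5 on the opposite strand, which had 12 and 2 reads and a ratio of 4.59 (1.02 to 42.2). Dnajc12, a cofactor for the folding of aromatic amino acid hydroxylases, had 1.51, but its interval held 1 (0.976 to 2.36). With the pseudocount its log2 ratio of 0.58 also fell just short of 1.5-fold. Dnajc2, the J protein of the ribosome exit, had 1.42 (1.24 to 1.63), and Dnajc16 was lower, with 13.9 CPM and 22.0 CPM and a ratio of 0.630 (0.504 to 0.787).

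**Figure D2:**
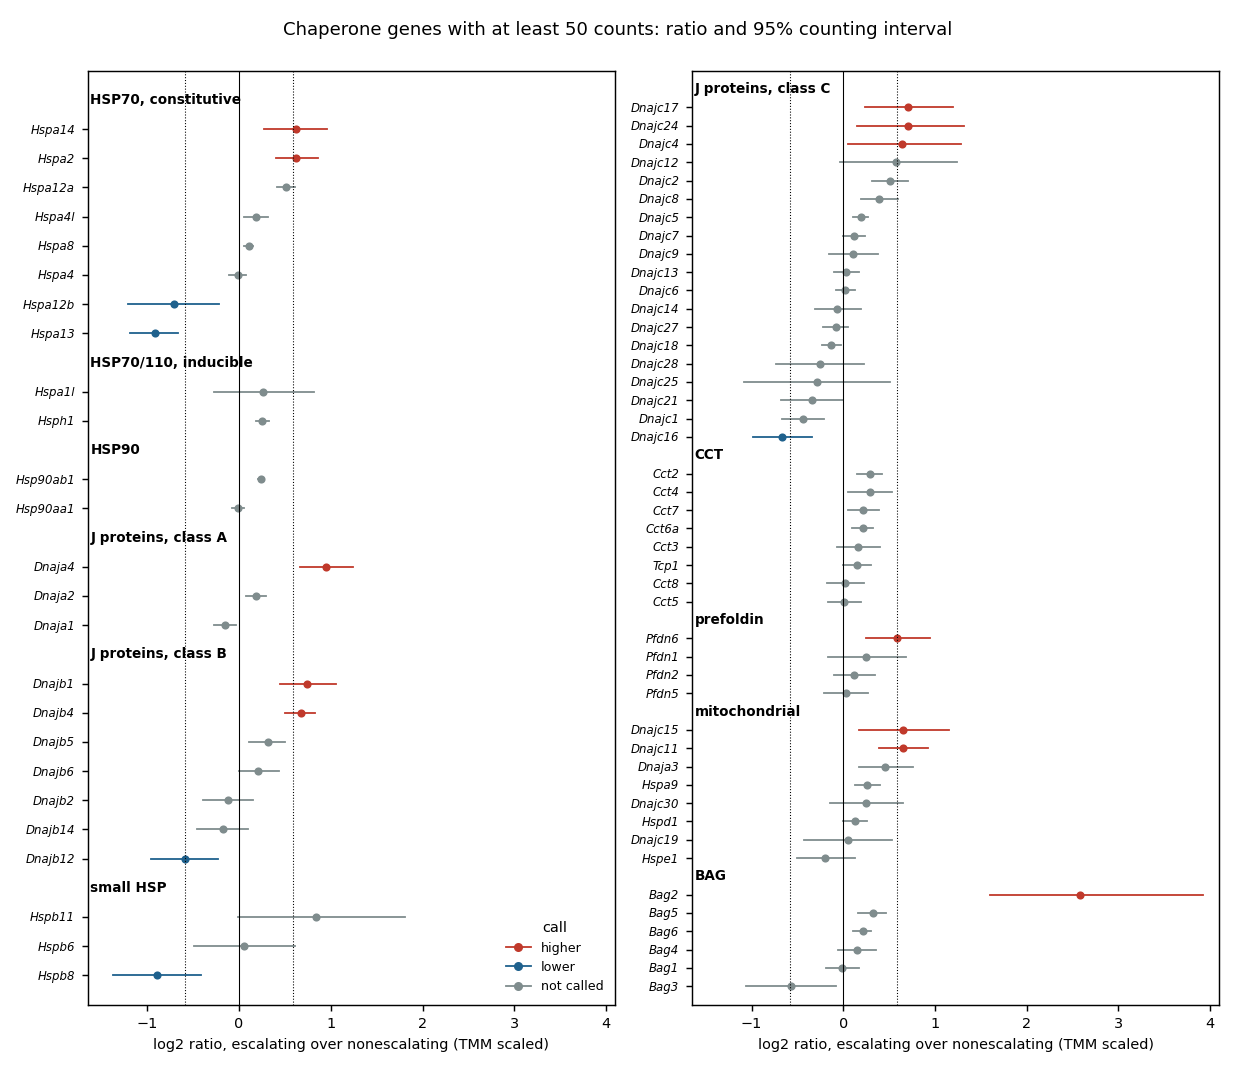
The log2 ratio of the escalating over the nonescalating library for the 70 measured chaperone genes, by role group; points are ratios, bars exact 95% counting intervals, dotted lines 1.5-fold, red genes called higher (12), blue genes called lower (5) and grey genes not called (53). Bag2 at 2.58 stands apart from all others, and all CCT subunits lie between 0.01 and 0.29.

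The label of cytosolic and mitochondrial chaperones did not hold for every gene the symbol rule took in. Hspa13, Dnajb12, Dnajb14, Dnajc1, Dnajc14, Dnajc16 and Dnajc18 are known as ER membrane or microsomal proteins. This group was put together after its values were seen, may not hold every such member, and has no test. All 7 had a ratio below 1 and 3 were called lower (42.9%), with a median log2 ratio of -0.44. The remaining 63 measured members had 12 higher and 2 lower (19.0% and 3.17%) and a median of 0.21. Among all measured genes 9.33% were higher and 17.1% lower. Since the values were known when the group was made, its gap to the remaining members may follow from that choice. The 5 ER genes that the rule left out were lower still, at a median of -1.01 with 4 called lower (80.0%). Hspa5, the HSP70 of the ER lumen, had 101 CPM in the escalating library and 204 CPM in the nonescalating library. With total-read scaling 0 of the 7 were called and their median was -0.08, while 3 of the 5 left-out genes were still lower (median -0.65). Of all measured genes, 9.41% were lower with that scaling. Astrocyte, oligodendrocyte, endothelial and microglial markers were lower in the same library, as given above, and their part in these values was not tested.

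The subunits of the CCT ring lay in a narrow band. CCT is a ring of 8 different subunits that folds actin and tubulin, and all 8 genes were measured. Summed, they had 585 CPM in the escalating library and 515 CPM in the nonescalating library, a ratio of 1.13 (1.09 to 1.18). Log2 ratios ran from 0.01 for Cct5 to 0.29 for Cct2 and Cct4, and 0 of 8 were called. Of all measured genes, 9.33% were called higher and 17.1% lower. Exons of Tcp1, Cct6a, Cct7 and Cct8 overlap those of genes on the opposite strand, and Cct6a and Tcp1 each overlap a small nucleolar RNA gene on their own strand as well. Reads over the shared bases may have been left out of the counts as overlapping several genes. In prefoldin, Pfdn6 was higher, with 19.7 CPM and 13.1 CPM and a ratio of 1.51 (1.19 to 1.92); it shares 78 exon bases with an antisense transcript. Pfdn1, Pfdn2 and Pfdn5 had ratios of 1.20 (0.893 to 1.61), 1.09 (0.932 to 1.27) and 1.02 (0.864 to 1.21). Pfdn4, with 21 and 27 reads, was under the limit of 50.

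In mitochondria, the chaperonin pair did not reach the call. Hspd1, the HSP60 ring, had 111 CPM in the escalating library and 101 CPM in the nonescalating library. Hspe1, its HSP10 lid, had 17.0 CPM and 19.5 CPM, a ratio of 0.874 (0.703 to 1.09), so the genes of this shared start region had log2 ratios of 0.13 and -0.20. Hspa9, the HSP70 of the matrix that pulls proteins through the inner membrane, had 106 CPM and 88.5 CPM, a ratio of 1.20 (1.09 to 1.32). Its J protein Dnaja3 had 1.38 (1.13 to 1.69). Dnajc11, a protein of the outer membrane and cristae junctions, had 33.0 CPM and 21.0 CPM, a ratio of 1.57 (1.31 to 1.89), and Dnajc15, a J protein of the import motor, had 10.3 CPM and 6.53 CPM, a ratio of 1.57 (1.13 to 2.22). Both were called higher. Dnajc19, another import J protein, had 1.04 (0.743 to 1.45). Together, the 8 genes placed in the mitochondrial group had 324 CPM and 274 CPM, a ratio of 1.18 (1.12 to 1.25).

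The widest gap of the family was at a BAG gene. Bag2, a cochaperone that blocks the ubiquitin ligase CHIP, had 66 reads in the escalating library and 8 in the nonescalating library, or 6.10 CPM and 0.967 CPM, a ratio of 6.31 (3.02 to 15.2). Bag2 lies on chromosome 1 and shares 131 exon bases with an unclassified transcript on the opposite strand. It was a rare transcript, at 1.99 and 0.316 CPM per kb, and the size of its ratio rests on 8 reads. Bag3, which works with Hspb8 to send aggregates to autophagy, went the other way at 6.19 CPM and 9.19 CPM, a ratio of 0.674 (0.478 to 0.949), just short of the call. Bag1, Bag4, Bag5 and Bag6 had ratios of 0.994 (0.879 to 1.13), 1.11 (0.958 to 1.28), 1.25 (1.12 to 1.38) and 1.15 (1.08 to 1.23).

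Small heat shock proteins, which hold unfolded proteins without ATP, were scarce. Hspb8, the partner of Bag3, was lower, with 6.01 CPM in the escalating library and 11.1 CPM in the nonescalating library, a ratio of 0.540 (0.387 to 0.750). Hspb6 had 6.28 CPM and 6.04 CPM, a ratio of 1.04 (0.711 to 1.53). Hspb11, a part of the transport machinery of cilia despite its symbol, had 38 and 16 reads and a ratio of 1.82, but its interval held 1 (0.989 to 3.49). Hspb2, Hspb3 and Hspb7, known from muscle, had no read in either library, which allows up to 0.277 CPM in the escalating library and 0.363 CPM in the nonescalating library. Cryab, the alpha B crystallin, is a small heat shock protein outside the symbol rule that is abundant in oligodendrocytes and astrocytes. It had 31.5 CPM and 64.2 CPM, a ratio of 0.491 (0.427 to 0.564), and the markers of those cells were lower beside it; their part was not tested.

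Other genes of the chaperone pathway were read from lists. None of the 4 measured heat shock factor genes and regulators was called: Hsf1, the main stress sensor, had 37.9 CPM in the escalating library and 36.4 CPM in the nonescalating library, and Hsbp1, a small protein that binds HSF1, 228 CPM and 190.4 CPM. Of 22 measured HSP90 and HSP70 cochaperones 3 were higher and 1 lower (13.6% and 4.55%), with a median log2 ratio of 0.25. Among all measured genes 9.33% were higher and 17.1% lower. Fkbp5, an immunophilin of HSP90 that glucocorticoids induce, had 35.9 CPM and 20.2 CPM, a ratio of 1.78 (1.48 to 2.14). Unc45a, a myosin chaperone, had 1.72 (1.26 to 2.38) and Hspbp1, an exchange factor for HSP70, 1.54 (1.23 to 1.92), while Ahsa2, a relative of the HSP90 activator Ahsa1, was lower at 0.542 (0.371 to 0.786). Of 11 measured partners of CCT and prefoldin 0 were higher and 2 lower (18.2% lower, near the 17.1% of all genes). The lower genes were Pdcl, a phosducin-like CCT cofactor, at 0.559 (0.410 to 0.758), and Vbp1, the remaining prefoldin subunit, at 0.614 (0.466 to 0.808). The highest of this list were Tbcb and Tbcd, tubulin folding cofactors, at 1.27 and 1.26. Of 14 other mitochondrial chaperones and proteases 0 were called, but 13 had a ratio above 1 and the median log2 ratio was 0.32; Hscb and Grpel1 were the highest at 1.44 (0.951 to 2.23) and 1.41 (1.05 to 1.89), and Tomm70a and Lonp1 the lowest at 0.973 and 1.03. With total-read scaling Hsbp1 was the 1 gene called in the heat shock factor list, higher at 1.54. Also higher there were 12 of 22 cochaperones, 2 of 11 CCT and prefoldin partners and 10 of 14 other mitochondrial genes. None of these lists had a lower gene, and Fkbp5, Unc45a and Hspbp1 were among the higher ones. Of all measured genes, 31.5% were higher and 9.41% lower with that scaling.

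**Figure D3:**
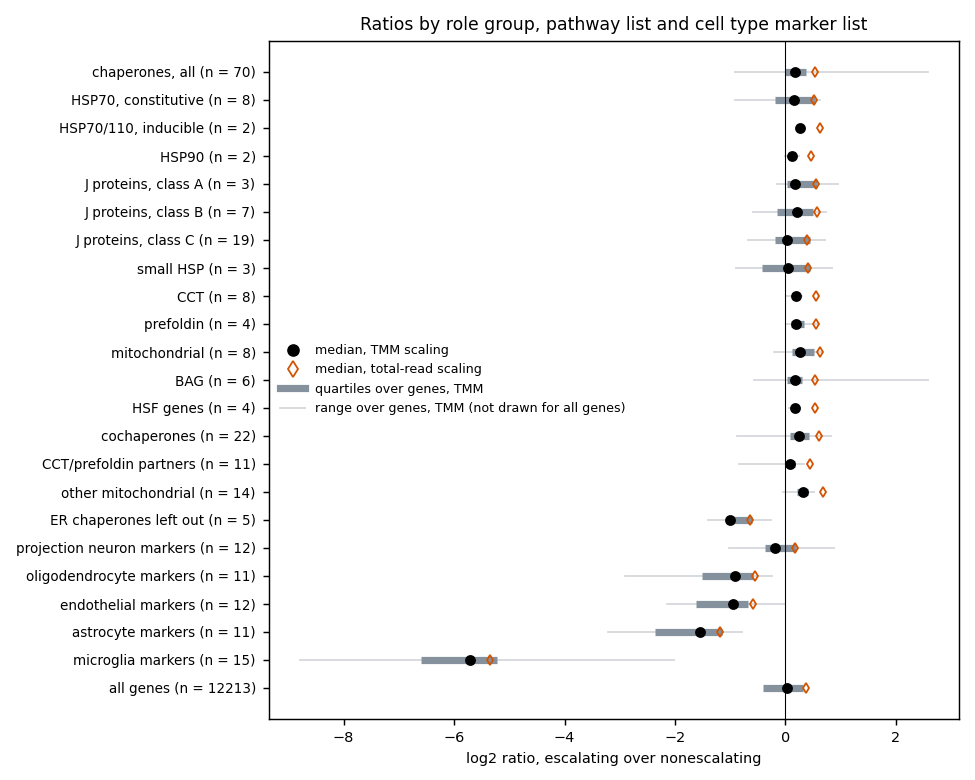
Log2 ratio of the escalating over the nonescalating library by role group, pathway list and cell type marker list, with the number of measured genes; black circles are medians and grey bars quartiles over genes with TMM scaling, thin lines the range, and open orange diamonds medians with total-read scaling. The chaperones as a whole stand at 0.17 (0.53 with total-read scaling), the ER genes left out by the rule at -1.01, astrocyte markers at -1.55 and microglia markers at -5.71, beside 0.02 (0.38) for all genes.

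The higher members were shorter in the median than all measured genes and close to them in base composition. The median exon length was 3132 bases for the 12 higher members, 3685 for the 5 lower members, 4042 for all measured members and 4898 for all measured genes with an annotation. Median GC content was 51.6%, 53.0%, 47.4% and 49.4% in the same order. Across the 70 measured members, Spearman's rho of the log2 ratio was -0.18 with exon length and 0.07 with GC content, against -0.07 and 0.07 over 11317 genes; these are descriptions across genes of the same libraries. Reads that overlapped more than 1 gene were 8.06% of all reads in the escalating library and 18.9% in the nonescalating library, and 30 of the 70 measured members share exon bases with another gene. Without these, 6 of 40 members were higher and 5 lower (15.0% and 12.5%). The shares over all measured genes, overlapping ones included, were 9.33% and 17.1%. The higher members Bag2, Dnaja4, Dnajc17, Dnajc24, Hspa14 and Pfdn6 share exon bases with another gene, and no lower member does.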

How the data were processed

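RNA-seq of input RNA gave 1 library per group. Per the submitters' processing notes, the authors used STAR 2.0.0e, HTSeq and build mm10; the HTSeq version, strand setting and gene models are details not given in the sources used here. What the authors deposited are raw counts, without normalization, for each gene symbol. Rows that name no gene stayed out of library sizes: in the escalating and the nonescalating library, no gene was hit by 28.6% and 18.1% of all reads, several genes by 8.06% and 18.9%, and several places in the genome by 9.53% and 7.78%.

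Counts were scaled by TMM (edgeR 4.0.16, R 4.3.3; factors 1.13 and 0.882). Log2 ratios used a pseudocount of 0.5, and ratios of CPM none. The interval of a ratio is the exact Clopper-Pearson interval of the split of counts. Calls were made over the whole table. No test was possible with 1 library per group, and intervals cover counting error only, since reads are not independent molecules. Lengths, coordinates and overlaps came from GENCODE M21, on the same build, which matched 71.2% of symbols and all 83 members. Promoter letters came from RefSeq, GRCm38.p6. Protein sequences were not used here. The calling steps were run on simulated counts that hold counting noise only. Such counts cannot test the spread between animals or libraries. The members, lists and rules were chosen with earlier results of these data known. Every member may be named; genes outside the set come from the lists. Also tried were size factors from DESeq2 1.42.0, total reads, upper-quartile factors, other count filters, a pseudocount of 5, stricter calls and leaving out overlapping genes. Tables and plots were made in Python 3.11.15 (pandas 2.3.3, numpy 2.4.6, matplotlib 3.10.9); intervals came from scipy 1.17.1.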

Additional observations from a re-analysis of the deposited data

How the results depend on the processing

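No paired analysis was possible because each group has 1 library. With DESeq2 size factors the 12 higher and 5 lower calls were the same genes. Total-read scaling gave 28 higher and 0 lower, with the 12 higher genes among the 28. Its median log2 ratio was 0.53, beside 0.38 for all genes, and its summed ratio 1.43. Total reads without AK140265 and Rn45s gave 17 higher, 2 lower and a summed ratio of 1.22. Leaving both out took the escalating total from 9548358 to 8134803 reads. The nonescalating total fell further, from 9376097 to 6833122 reads. The members' median was then 0.31, beside 0.15 for all genes, so much of the total-read shift went with the reads of AK140265 and Rn45s. Upper-quartile factors gave 14 higher, 4 lower and a summed ratio of 1.17. The higher share of members stayed above that of all genes under each scaling (40.0% beside 31.5%, 24.3% beside 15.6%, 20.0% beside 11.9%), and the lower share below it. A minimum of 200 counts left 7 higher and 3 lower of 55 (12.7% and 5.45%, beside 6.88% and 15.0% of all genes). At 2-fold 1 was higher (1.43%, beside 2.01% of all genes) and 0 lower (beside 8.93%). When the interval bound itself had to reach 1.5-fold, 2 were higher (2.86%, beside 1.88%) and 1 lower (1.43%, beside 9.92%). Leaving out members that overlap another gene or have a near-identical copy left 6 higher and 5 lower of 40 (15.0% and 12.5%, beside 9.33% and 17.1%), so the lower share came closer to that of all genes. No called member changed sign under another scaling or a pseudocount of 5, which kept 14 of the 17 calls. Of the 70 members, 13 changed sign with total-read scaling. Lengths of protein-coding transcripts, added after the data were seen, moved the levels per kb. The depth limits the genes under 50 counts, and no alternative stands in for a second animal or library.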
